A study of Mus musculus with 6 samples.

Results

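The Egr and Nab genes are a family of activity-regulated transcription factors (Egr1, Egr2, Egr3 and Egr4) and the corepressors that bind them (Nab1 and Nab2), and their mRNA was followed in depolarized mouse cortical neurons. The 6 genes were taken by symbol, and all 6 were found among the 43432 genes listed in each expression table. The cells were wild-type C57BL/6 cortical neurons from E16.5 embryos of both sexes, pooled, kept in culture for 7 days. All groups, the control included, had been silenced overnight with 1 μM tetrodotoxin, which blocks sodium channels, and 100 μM DL-AP5, which blocks NMDA receptors. Neurons were then held in 55 mM KCl, which depolarizes the membrane and opens voltage-gated calcium channels, for 0 h (the silenced control), 2 h or 6 h. Each time point had 2 replicates, which gave 6 poly(A) RNA libraries. The submitters call them biological replicates, and no source says whether they came from separate litters. A p-value here therefore sets a change against the spread between these samples only, estimated with all genes in the fit.

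The Egr proteins are zinc-finger activators that bind a GC-rich DNA site and belong to the immediate-early genes, which are transcribed from factors already present in the cell once calcium and MAP kinase signals arrive. Serum response factor (SRF) with its ternary complex partners drives several Egr promoters, and CREB drives others. Nab1 and Nab2 have no DNA-binding domain of their own. They dock on the inhibitory domain of Egr1, Egr2 and Egr3, a domain that Egr4 lacks, and repress transcription there, Nab2 through the chromatin remodeller Chd4 of the NuRD complex. Egr1 and Egr3 are known in neurons for their part in synaptic plasticity and memory, and Egr2 is best known as the driver of myelination in Schwann cells.

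The promoter sequences below are shown because 4 of the genes rose after depolarization and the factors named above bind known motifs. RefSeq windows on GRCm38.p6, from 250 bases before to 50 bases after a start site, were found for 4 of the 6 genes (Egr2, Egr4, Nab1 and Nab2, 8 windows). They were searched on both strands for the CRE (TGACGTCA, bound by CREB), the CRE half-site (TGACG, which the full CRE contains), the Egr sites GCGTGGGCG and GCGGGGGCG, and the CArG box of SRF. Capitals mark the match in each 30-base stretch, which is read on the strand of its gene. Of the 5 Egr2 windows, the most upstream held none of these motifs, and 3 overlap each other and share their matches. Egr2 has a CArG box at chr10:67537484-67537513 (+), at position -68 from the start site at 67537566, and another at chr10:67537787-67537816 (+), at position -68 from the start site at 67537869.
Egr2 CArG box, start site 67537566: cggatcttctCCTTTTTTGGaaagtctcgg
Egr2 CArG box, start site 67537869: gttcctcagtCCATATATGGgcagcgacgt
Upstream of the start site at 67537869 Egr2 also has CRE half-sites at chr10:67537745-67537774 (+) and chr10:67537801-67537830 (+), at positions -109 and -53.
Egr2 CRE half-site at -109: caaattggccatgTGACGgcaaaagctgcc
Egr2 CRE half-site at -53: atatgggcagcgaCGTCAcgggtattgaag
The window of Egr4 has CRE half-sites at chr6:85513750-85513779 (-) and chr6:85513682-85513711 (-), at positions -175 and -107 from the start site at 85513589, and none of the other motifs.
Egr4 CRE half-site at -175: gcggcggcagcaaCGTCAcaggccgagctt
Egr4 CRE half-site at -107: gtttggtcatttaCGTCAcggcgccagggc
In the Nab1 window there are 3 matches to the sites that Egr proteins bind and 1 CRE half-site, at chr1:52500571-52500600 (-), chr1:52500555-52500584 (-), chr1:52500539-52500568 (-) and chr1:52500468-52500497 (-), upstream of the RefSeq start site at 52500448 and inside the longer M21 gene.
Nab1 Egr site GCGTGGGCG at -137: cgccccgcggcCGCCCACGCcgggatctgc
Nab1 CRE half-site at -121: acgccgggatctgCGTCActcggccgcgcg
Nab1 Egr site GCGTGGGCG at -105: cactcggccgcGCGTGGGCGggagccggag
Nab1 Egr site GCGGGGGCG at -34: cgcggggcgggGCGGGGGCGgcggaggtgg
The Nab2 window, at chr10:127666654-127666953 (-), held none of these letters. It lies inside the longer M21 gene, which starts at 127668568 on the minus strand, so the sequence at that start was not searched. Of all 32851 mouse windows of this length, 1.63% held a CArG box, 20.8% a CRE half-site, 1.79% the full CRE, 0.612% GCGTGGGCG and 2.91% GCGGGGGCG. A match describes the letters only, and binding was not measured.

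On the GRCm38 assembly with the GENCODE M21 annotation, Egr1 (ENSMUSG00000038418) lies on chromosome 18 from 34859823 to 34864984 and Egr2 (ENSMUSG00000037868) on chromosome 10 from 67535475 to 67542188, both on the plus strand. Egr3 (ENSMUSG00000033730) lies on chromosome 14 from 70077203 to 70082614 on the plus strand, and Egr4 (ENSMUSG00000071341) on chromosome 6 from 85511121 to 85513589 on the minus strand. Nab1 (ENSMUSG00000002881) takes chromosome 1 from 52457294 to 52500679 and Nab2 (ENSMUSG00000025402) takes chromosome 10 from 127660918 to 127668568, both on the minus strand. All are protein coding. The longest transcript has 2 exons in each Egr gene, 8 in Nab1 and 7 in Nab2. For Egr3 the deposited tables hold 1 of the 4 transcripts in M21, of 1509 bases, while the longest in M21 has 3940 bases, so reads outside that transcript were not counted, and the effect of this on the level of Egr3 was not tested. Nab2 overlaps Stat6, Nemp1 and Gm16229, which also had counts, so its count is uncertain. Counts of Nab1 and of Nab2 were not whole in 1 library each, where reads were shared with another gene.

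Depth was similar among the libraries, with total expected counts of 25959298 to 28573067 and 18767 to 19212 genes with a count. Neuronal markers were high in every library, with 8 of 8 at 1 TPM or more (a level per transcript length, on 1 scale for all libraries) and summed levels of 3820 to 3860 TPM at 0 h, 3250 to 3300 after 2 h, and 3440 to 3580 after 6 h. Summed astrocyte markers were at 510 to 551 TPM at 0 h, at 505 in both 2 h libraries and at 413 to 424 at 6 h. The oligodendrocyte lineage took 111 to 128, 84.8 to 99.2 and 104 to 113 TPM, and dividing progenitors 92.4 to 98.7, 85.3 to 94.5 and 77.4 to 85.1 TPM, at the same times. Mural and fibroblast markers summed to 14.4 to 20.2 TPM, microglial markers to 3.45 to 9.39 TPM and endothelial markers to 0.8 to 1.58 TPM, with Cldn5 at or under 3 counts in every group. Fewer cells of a type and less RNA per cell cannot be told apart in such bulk samples, and the part of these shifts in the results was not tested. The 2 h replicates stood further apart than the others, with an SD of the log2 ratio between replicates of 0.429 over 12290 genes, against 0.246 at 0 h and 0.214 at 6 h. The log2 ratio of replicate 1 over replicate 2 fell with the GC content of the transcript (Spearman's rho across genes -0.747 at 2 h, -0.399 at 0 h and -0.283 at 6 h, a description, since genes are not replicates), and the longest transcripts of the 6 genes range from 47.2% GC in Nab1 to 68.2% in Egr4.

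To follow the Egr activators through depolarization, their levels were first read per library in TPM and then compared on normalized counts. Egr1, Egr2 and Egr4 rose by 2 h and were lower again at 6 h, while Egr3 did not pass the test at either time. Nab1 rose by 2 h and by 6 h, and Nab2 was not called in any comparison. A gene was called when its fold change was above 2 and its adjusted p was at most 0.05 (DESeq2, Benjamini-Hochberg over all genes tested). At 2 h against 0 h, 4 of the 6 genes were called higher (Egr1, Egr2, Egr4 and Nab1), where 3.62% of the 16840 genes tested were called higher. Without 2 h replicate 1 the count was 2 (Egr1 and Egr2). None was called lower, where 5.94% of genes were, none had an unadjusted p under 0.05 in that direction, and edgeR called 0. The median log2 fold change of the 6 genes was 1.85, and that of all genes tested was 0.0154.

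**Figure D1:**
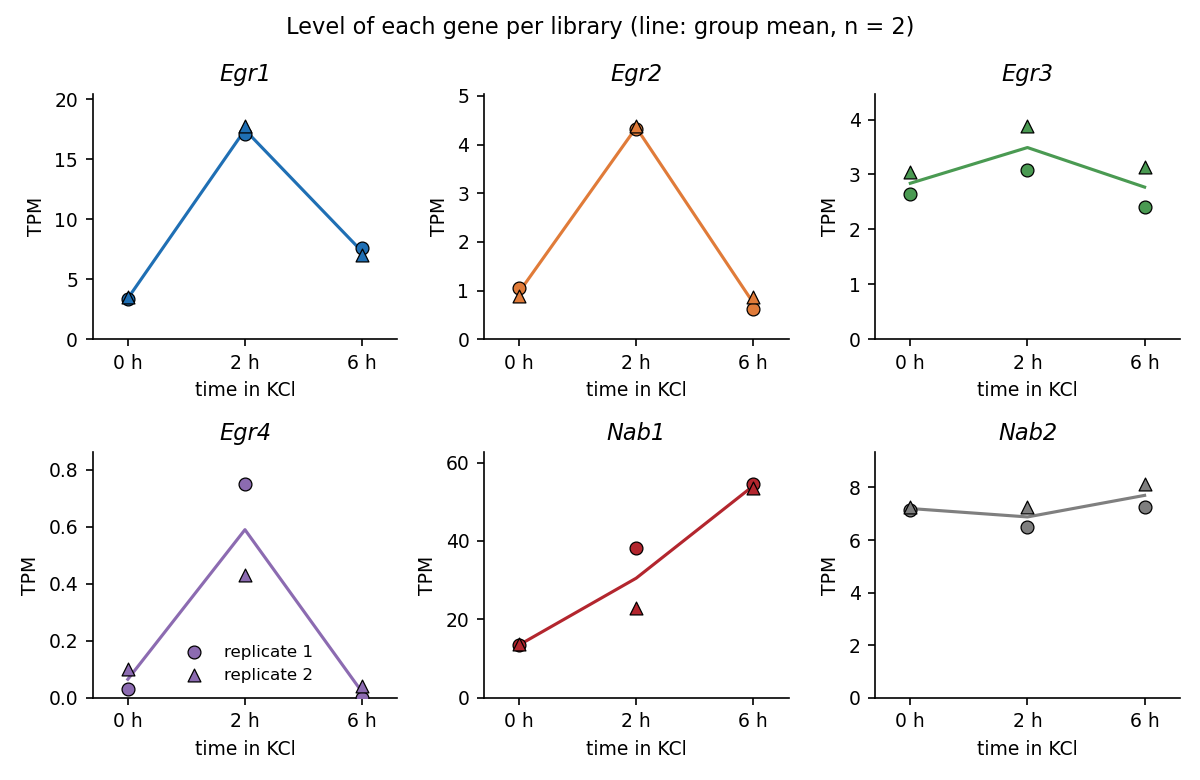
Level of each of the 6 genes in TPM (y axis, from 0, a separate scale per panel) against time in KCl (x axis, 0 h, 2 h and 6 h). Each point is 1 library, circles for replicate 1 and triangles for replicate 2, and the line joins the group means (n = 2). Egr1, Egr2 and Egr4 peak at 2 h, Nab1 is highest at 6 h with its 2 h replicates apart at 38.1 and 22.93 TPM, and Egr3 and Nab2 stay within a narrow band.

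Egr1, the best-studied member of the family, was at 3.32 and 3.50 TPM at 0 h, 17.1 and 17.81 TPM after 2 h, and 7.57 and 7.05 TPM after 6 h. The libraries of the 3 time points did not overlap, with all 2 h libraries highest and all 6 h libraries between the others. In normalized counts Egr1 went from 131.4 ± 3.73 (SD, n = 2) at 0 h to 765.1 ± 10.1 (SD, n = 2) at 2 h, 5.82-fold higher or 2.54 on the log2 scale (SE 0.17, adjusted p 1.08e-47). It ranked 397 by fold change among the 16840 genes tested. At 6 h it had dropped to 319.7 ± 20.1 (SD, n = 2), which against 2 h is a change of -1.26 on the log2 scale (SE 0.16, adjusted p 7.61e-14), and it was still 2.43-fold higher than at 0 h (log2 fold change 1.28, SE 0.18, adjusted p 4.57e-12). Of the gain made by 2 h, 29.7% was left at 6 h.

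Egr2, the family member known from Schwann cell myelination and hindbrain patterning, was at 1.06 and 0.88 TPM at 0 h, 4.31 and 4.39 TPM after 2 h, and 0.62 and 0.87 TPM after 6 h. Its 2 h libraries lay above all others, and in TPM each 6 h library lay below both 0 h libraries, while in normalized counts the 0 h and 6 h libraries overlapped. Normalized counts rose from 36.4 ± 5.01 to 184.9 ± 0.221 (SD, n = 2 each), which is 5.08-fold or 2.35 on the log2 scale (SE 0.33, adjusted p 2.58e-11). From 2 h to 6 h they fell by 2.55 on the log2 scale (SE 0.34, adjusted p 1.95e-12), to 31.7 ± 6.94. The 6 h level did not pass the test against 0 h (log2 fold change -0.20, SE 0.37, adjusted p 0.7), and -3.2% of the gain was left, a value below 0 because the 6 h mean lay under the 0 h mean.

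Egr4, which lacks the Nab-binding domain, was the scarcest of the 6 genes. Its expected counts were 1 and 3 at 0 h, 22 and 12 after 2 h, and 0 and 1 after 6 h, which is 0.03 and 0.10 TPM, 0.75 and 0.43 TPM, and 0.00 and 0.04 TPM. The 2 h libraries lay above all others, while the 0 h and 6 h libraries were at or under 3 counts, the floor set per library. Summed over replicates, 34 counts at 2 h against 4 at 0 h gave a ratio of 9.99 after scaling for depth (95% counting interval 3.56 to 38.7), and 34 against 1 at 6 h gave 32.2 (5.4 to 1310). These intervals cover counting error only. The fitted log2 fold change was 3.32 at 2 h against 0 h (SE 1.26, adjusted p 0.0343) and -5.00 at 6 h against 2 h (SE 1.77, adjusted p 0.0127), and 6 h against 0 h gave -1.68 (SE 1.90, adjusted p 0.503), none of which is a bound at such counts. At this depth the call at 2 h against 0 h held in 4 of 11 alternative settings that gave an adjusted p, which ranged from 0.0275 to 1.0. The fall from 2 h to 6 h held in 9 of 11 such settings. It had no adjusted p when a 2 h or 6 h library was left out or a mean expected count of 10 was required.

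Egr3, known for its role in muscle spindle development, was at 2.64 and 3.04 TPM at 0 h, 3.09 and 3.89 TPM after 2 h, and 2.41 and 3.13 TPM after 6 h, all read on the single short transcript. Its 2 h libraries lay above the 0 h libraries by a margin smaller than the gap between the 2 h replicates, and its 6 h and 0 h libraries overlapped. Normalized counts were 44.5 ± 3.87 at 0 h, 61.6 ± 9.41 after 2 h, and 48.8 ± 8.52 after 6 h (SD, n = 2 each). The log2 fold change was 0.47 at 2 h (SE 0.39, adjusted p 0.432) and 0.13 at 6 h (SE 0.39, adjusted p 0.816) against 0 h, and -0.33 at 6 h against 2 h (SE 0.39, adjusted p 0.514). The sign of the 6 h value turned under other scalings, such as library totals (-0.11).

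Nab1, a corepressor of Egr factors, was the most abundant of the 6 genes per length at every time point. It was at 13.35 and 13.60 TPM at 0 h, 38.1 and 22.93 TPM after 2 h, and 54.51 and 53.63 TPM after 6 h. The 3 time points did not overlap, and every 2 h library lay between the 0 h and 6 h libraries. Normalized counts were 667.5 ± 2.53 at 0 h, 1699 ± 602 after 2 h, and 2963 ± 144 after 6 h (SD, n = 2 each). Nab1 rose 2.55-fold by 2 h (log2 fold change 1.35, SE 0.23, adjusted p 1.42e-07) and was 4.44-fold higher at 6 h (log2 fold change 2.15, SE 0.23, adjusted p 7.78e-19). Between 2 h and 6 h the log2 fold change was 0.80 (SE 0.23, adjusted p 0.00183), under the fold needed for a call. The log2 ratio of 2 h replicate 1 over replicate 2 was 0.74 in Nab1. In 1319 genes within 1 percentage point of its GC content, the median of this signed ratio was 0.03. The SD of the ratio over 12290 genes was 0.429. Without 2 h replicate 1 the log2 fold change of Nab1 was 0.92 at 2 h against 0 h, no longer called for its size (adjusted p 1.23e-12), and 1.23 at 6 h against 2 h, then called (adjusted p 9.73e-24).

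Nab2, the corepressor that is itself known as an inducible early gene in other cells, was at 7.16 and 7.24 TPM at 0 h, 6.50 and 7.26 TPM after 2 h, and 7.27 and 8.13 TPM after 6 h. In TPM the 0 h and 2 h libraries overlapped, and the lower 6 h library was level with the higher 2 h library. In that unit the 6 h libraries lay narrowly above the 0 h libraries. In normalized counts the time points did not overlap, at 184.6 and 204.8, 209.7 and 230.5, and 236.5 and 259.2. Its normalized counts were 194.7 ± 14.2, 220.1 ± 14.7 and 247.8 ± 16.1 (SD, n = 2 each) in the order of the time points. The log2 fold change was 0.18 at 2 h (SE 0.20, adjusted p 0.613) and 0.35 at 6 h (SE 0.20, adjusted p 0.158) against 0 h, and 0.17 at 6 h against 2 h (SE 0.20, adjusted p 0.524). With a GC correction, Nab2 at 6 h against 0 h came to 0.49 (adjusted p 0.0261), still under the fold needed for a call.

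**Figure D2:**
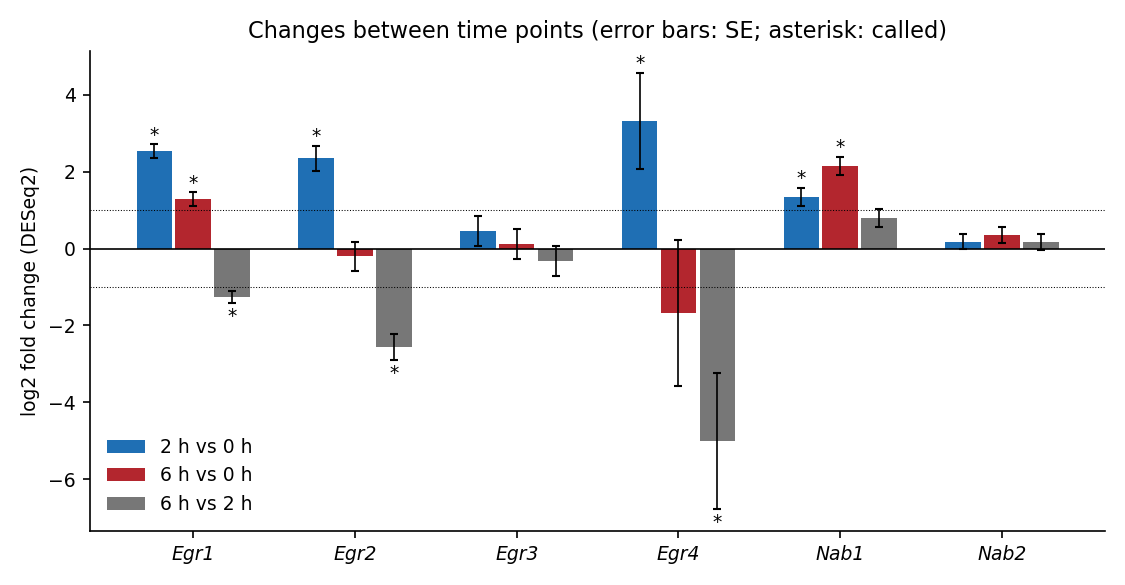
Log2 fold change of each gene (y axis, DESeq2) for 2 h against 0 h (blue), 6 h against 0 h (red) and 6 h against 2 h (grey); error bars are standard errors, dotted lines mark a fold of 2 in each direction and an asterisk marks a called change. Egr1, Egr2 and Egr4 have a called rise at 2 h and a called fall from 2 h to 6 h, and Nab1 has called rises at 2 h and 6 h with no called fall.

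In the comparison of 6 h with 0 h, 2 of the 6 genes were called higher (Egr1 and Nab1), where 9.10% of the 17277 genes tested were. None was called lower, where 10.2% of genes were, and again 0 had an unadjusted p under 0.05 in that direction and edgeR called 0. From 2 h to 6 h, 3 of the 6 were called lower (Egr1, Egr2 and Egr4), where 8.02% of the 16404 genes tested were. None was called higher, where 10.1% of genes were, while 1 (Nab1) had an unadjusted p under 0.05 and edgeR called 0. The 2 h and 6 h comparisons share the 0 h libraries, and the calls at 6 h against 2 h share the 2 h libraries with the first comparison, so these counts are not independent of each other. Library totals in place of median-of-ratios scaling moved the median of 14668 genes to -0.156 at 2 h and -0.251 at 6 h against 0 h. Under them 27.3% of the called genes were higher at 2 h (37.8% in the main test) and 28.7% at 6 h (47.2%). Egr1, Egr2 and Nab1 kept the calls they had in these comparisons under that scaling.

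The order of the genes by level per length also moved with time. At 0 h it ran Nab1, Nab2, Egr1, Egr3, Egr2, Egr4, and no neighbours in it overlapped. At 2 h Egr1 had passed Nab2 and Egr2 had passed Egr3, again with no overlap between neighbours. By 6 h the 0 h order was back, except that the libraries of Nab2 and Egr1 overlapped, so their order was not resolved. Set among all genes with a count at that time, the mean TPM of Egr1 was above 42.7% of them at 0 h, 67.8% after 2 h, and 54.9% after 6 h. For Nab1 these shares were 59.6%, 76.6% and 84.3%, and for Egr2 they were 32.6%, 49.3% and 32.6%.

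Egr mRNA differed between time points in composition as well as in amount. The summed level of the 4 Egr genes was 7.05 and 7.52 TPM at 0 h, 25.2 and 26.5 TPM after 2 h, and 10.6 and 11.1 TPM after 6 h. Egr1 made up 47.1% and 46.5% of that sum at 0 h, 67.7% and 67.2% after 2 h, and 71.4% and 63.6% after 6 h. Every depolarized library thus had a higher Egr1 share than both control libraries. The share of Egr3 was 37.4% and 40.4% at 0 h, 12.2% and 14.7% after 2 h, and 22.7% and 28.2% after 6 h, highest at 0 h and lowest at 2 h. In normalized counts, which are not per length, it was lower, at 19.7% and 21.8%, 5.39% and 6.57%, and 10.6% and 13.8%, in the same order of time points. Egr2 took 15% and 11.7% at 0 h, 17.1% and 16.6% after 2 h, and 5.85% and 7.84% after 6 h, its lowest values. The ratio of Egr1 to Egr2 was 3.13 and 3.98 at 0 h, 3.97 and 4.06 after 2 h, and 12.2 and 8.1 after 6 h, so that only the 6 h libraries stood apart.

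Among the corepressors the balance moved toward Nab1. Nab1 over Nab2 in TPM was 1.86 and 1.88 at 0 h, 5.86 and 3.16 after 2 h, and 7.5 and 6.6 after 6 h. The 3 time points did not overlap in this ratio. Nab2 thus went from 34.9% and 34.7% of the summed Nab level at 0 h to 11.8% and 13.2% at 6 h, with 14.6% and 24.0% at 2 h. Setting activators against corepressors, the summed Egr level over the summed Nab level was 0.344 and 0.361 at 0 h, 0.566 and 0.878 after 2 h, and 0.172 and 0.18 after 6 h. The ratio was thus highest at 2 h and lowest at 6 h in every library, with Nab mRNA above Egr mRNA throughout. Between any pair of time points, 2 libraries against 2 cannot bring an exact permutation test to 0.05. No test was run on these ratios, which describe mRNA and not protein.

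**Figure D3:**
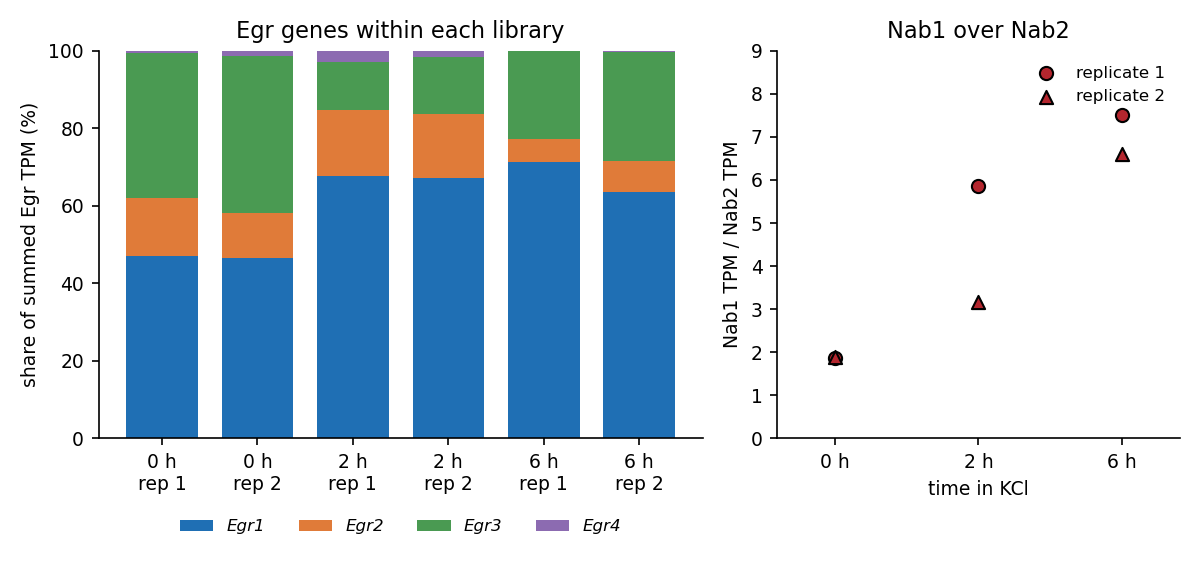
Left, share of Egr1, Egr2, Egr3 and Egr4 in the summed Egr TPM of each library (y axis, percent; 1 bar per library). Right, Nab1 TPM divided by Nab2 TPM (y axis, ratio) against time in KCl, 1 point per library, circles for replicate 1 and triangles for replicate 2. The Egr1 share is 46.5% to 47.1% at 0 h and 63.6% or more in every depolarized library, and the Nab ratio is 1.86 to 1.88 at 0 h and 6.6 to 7.5 at 6 h.

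To see whether the mix of transcripts moved, the effective length of each gene was tested across 11233 genes with limma. Egr1, Nab1 and Nab2 had enough counts for this test, and Egr2, Egr3 and Egr4 did not. None of the 3 was called in any comparison, where 0.0356% of genes were called at 2 h against 0 h, 0.525% at 6 h against 0 h and 0.116% at 6 h against 2 h. Log2 length ratios lay between -0.043 and 0.066, and adjusted p between 0.464 and 0.973 (smallest unadjusted p 0.125, so 0 were under 0.05).

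Genes with the most similar course were found by the root mean square (RMS) difference of log2(normalized count + 1), less its 0 h mean, across the 6 libraries, searching 12220 genes averaging 50 normalized counts or more. Closest to Egr1 were Spty2d1, a histone chaperone (RMS 0.0669), the zinc-finger gene Zfp184 (0.0989) and Tiparp, an ADP-ribosyltransferase (0.117). All of these peaked at 2 h and were partly down at 6 h, as the normalized counts of Spty2d1 show with 373.7 and 382.6, 2231 and 2050, and 964.1 and 811.0. Egr2 had no such close neighbour. The nearest were Jade2, a chromatin reader (0.255), Pcf11, a transcription termination factor (0.469), and Vps37b, an endosomal sorting gene (0.519). Jade2 went from 87.0 and 102.0 to 384.5 and 485.9, and then to 77.04 and 72.06, a rise and return like that of Egr2. Egr4 was nearest to Egr2 itself (0.631), followed by Jade2 (0.67) and Pcf11 (0.815), at a mean of 6.48 normalized counts for Egr4.

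Nab1 was followed most closely by Rnf128, a ubiquitin ligase (RMS 0.114), Mbnl2, a splicing regulator (0.122), and Psme4, a proteasome activator (0.158). In each of the 3 genes 2 h replicate 1 lay above replicate 2, as it did in Nab1, with 305.6 and 199.5 normalized counts in Rnf128 and 2227 and 1138 in Mbnl2. The distance counts each library, so this likeness is part of how the 3 genes were picked. Egr3 was nearest to Cic (0.045), Tfe3 (0.0615) and Map3k10 (0.0679), and Nab2 to Trim41 (0.0224), Tbrg4 (0.0353) and Pcdhb12 (0.0415). These genes varied little between time points, with log2 fold changes against 0 h of 0.12 to 0.51 in the former and 0.17 to 0.37 in the latter. All distances are descriptions over the same 6 libraries and share their depth and GC differences.

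**Figure D4:**
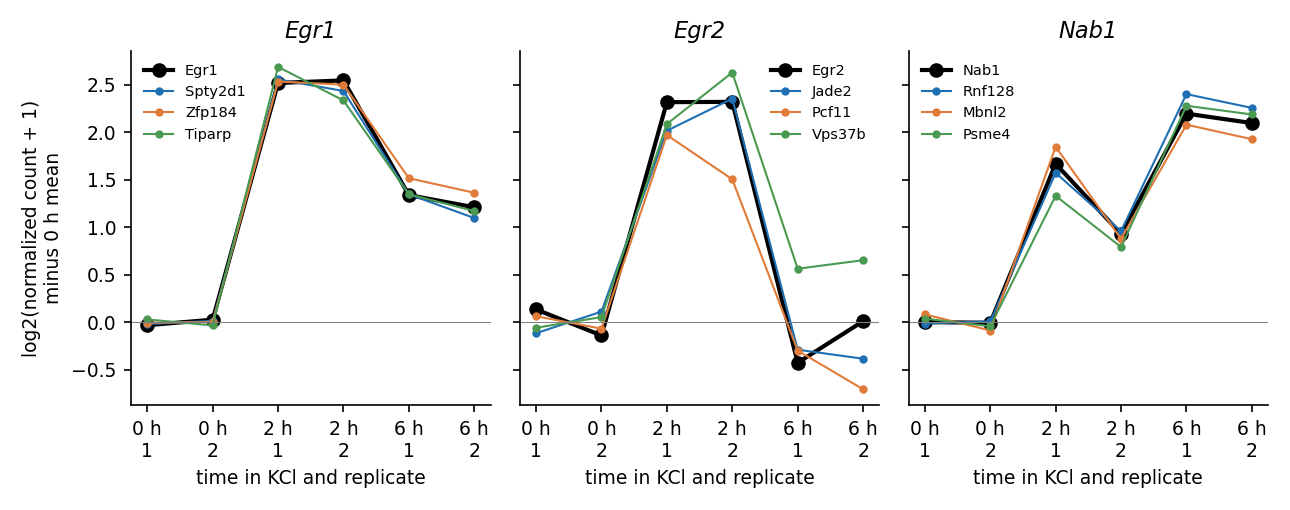
Log2(normalized count + 1) minus its 0 h mean (y axis) in each of the 6 libraries (x axis, time in KCl and replicate) for Egr1, Egr2 and Nab1 in black, each with its 3 nearest genes in color. Lines only link the points of a gene. The neighbours of Egr1 lie almost on it (RMS 0.0669 to 0.117), and those of Egr2 lie further off (0.255 to 0.519). The neighbours of Nab1 share its drop from 2 h replicate 1 to 2 h replicate 2, a trait that the search itself selects for.

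Upstream of the Egr genes, 6 genes for SRF and its ternary complex and coactivator partners were measured. At 2 h against 0 h, 1 was called higher and 0 lower, with a median log2 fold change of -0.12 (all genes 0.0154), and at 6 h 4 were called higher and 0 lower, with a median of 1.2 (all genes 0.000444). At 2 h 5 of the 6 had an unadjusted p under 0.05 in either direction, and edgeR called 1 higher and 0 lower. Under the fold needed for a call, Mrtfa (log2 fold change -0.81, adjusted p 0.000244), Elk1 (-0.68, adjusted p 1.17e-06) and Mrtfb (-0.47, adjusted p 0.00151) were lower at 2 h with DESeq2. Elk4 was higher (0.59, adjusted p 0.000298). At 6 h, also under that fold, Elk1 was lower (-0.49, adjusted p 0.000475) and Mrtfb higher (0.52, adjusted p 0.000125). The share of all genes called higher was 3.62% at 2 h and 9.10% at 6 h, and the share called lower was 5.94% and 10.2%. Srf itself stood at 743.9 and 777.0 normalized counts at 0 h, 1926 and 2013 after 2 h, and 1928 and 1982 after 6 h. It rose by a log2 fold change of 1.37 at 2 h (adjusted p 6.72e-32) and held at 1.36 at 6 h (adjusted p 1.03e-31). Elk4, a ternary complex factor, was at 489.1 and 455.9, 750.0 and 672.0, and 1626 and 1507, with a called rise of 1.73 at 6 h (adjusted p 2.99e-33). Mrtfa, an actin-regulated SRF coactivator, was at 576.1 and 507.3, 272.6 and 346.3, and 1197 and 1433, lower in both 2 h libraries than in any other. Its log2 fold change was 1.28 at 6 h against 0 h (adjusted p 6.5e-11) and 2.09 at 6 h against 2 h (adjusted p 5.53e-26). Elk3, another ternary complex factor, was called at 6 h against 0 h with 1.12 (adjusted p 1.7e-05). Between 2 h and 6 h, 2 of the 6 were called higher and 0 lower (median 0.941), where 10.1% of all genes were called higher and 8.02% lower. Scaling by library totals left 3 of these genes in place of 4 called higher at 6 h against 0 h.

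Of the 13 genes of the NuRD complex, which Nab2 recruits, 0 were called in either direction at 2 h against 0 h (5 had an unadjusted p under 0.05, and edgeR called 0) and 0 at 6 h against 0 h (8 had an unadjusted p under 0.05, edgeR called 0, and library totals called 1 lower). At 2 h a count of 0 in 13 is near the background of 3.62% higher and 5.94% lower. The background at 6 h was 9.10% higher and 10.2% lower. Under the fold needed for a call, 4 of the 13 at 2 h and 7 at 6 h had an adjusted DESeq2 p of at most 0.05 in either direction. Their median log2 fold changes were 0.258 and 0.182 (all genes 0.0154 and 0.000444). From 2 h to 6 h, 1 was called higher and 1 lower, with a median of -0.00411 (all genes -0.00527), which is near the background of 10.1% higher and 8.02% lower. The methyl-CpG binder Mbd2 was at 295.6 and 283.3 at 2 h and 649.5 and 578.7 at 6 h (log2 fold change 1.09, adjusted p 1.61e-07). Mta3, a subunit of the complex, went from 1437 and 1596 at 2 h to 754.4 and 700.2 at 6 h (log2 fold change -1.06, adjusted p 3.77e-14). The 5 other partners of Egr proteins had 0 calls at 2 h against 0 h (4 with an unadjusted p under 0.05, edgeR 0). At 6 h against 0 h 2 were called higher, the acetyltransferase Crebbp (1.24, adjusted p 1.59e-22) and the transcriptional cofactor Hcfc1 (1.18, adjusted p 8.2e-23), and none of the 5 was called with library totals. The medians of the 5 genes were 0.293 at 2 h and 0.987 at 6 h against 0 h. Crebbp was at 1529 and 1390 normalized counts at 0 h, 1894 and 1884 after 2 h, and 3623 and 3254 after 6 h. The helicase gene Ddx20 was the single call from 2 h to 6 h, where 10.1% of all genes were called higher, at 327.5 and 308.1 and then 835.7 and 828.2 (1.39, adjusted p 5.38e-16).

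Downstream, 15 genes known as Egr targets in various tissues were measured. At 2 h against 0 h, 1 was called higher and 0 lower, and at 6 h against 0 h 3 were called higher and 0 lower with DESeq2, with medians of 0.0618 and 0.241. Of all genes tested, 3.62% and 9.10% were called higher and 5.94% and 10.2% lower, so the 1 call at 2 h is near the background. In either direction 6 and 8 of the 15 had an unadjusted p under 0.05. edgeR called 0 lower at 2 h and 1 lower at 6 h, and with library totals 2 were called lower in each of these comparisons. Arc, which encodes a synaptic protein of memory formation, was at 15.98 and 31.18 normalized counts at 0 h, 120.8 and 135.4 after 2 h, and 176.6 and 182.8 after 6 h. It rose by 2.44 on the log2 scale at 2 h (SE 0.36, adjusted p 3.12e-10) and by 2.92 at 6 h (SE 0.36, adjusted p 3.9e-15). Gabra4, a GABA-A receptor subunit, was at 1042 and 992.7 at 0 h, 1342 and 814.7 after 2 h, and 3857 and 3860 after 6 h. Its log2 fold change was 1.92 at 6 h against 0 h (adjusted p 2.25e-16), and the 2 h libraries lay on either side of the 0 h libraries. Cd44, a hyaluronan receptor, was at 243.2 and 250.3, 286.6 and 251.2, and 661.3 and 672.2, up by 1.43 on the log2 scale at 6 h against 0 h (adjusted p 7.38e-17). From 2 h to 6 h 3 were called higher and 0 lower, namely Gabra4 (1.84, adjusted p 6.32e-15), Cd44 (1.31, adjusted p 5.53e-14) and the serotonin receptor gene Htr2a (1.06, adjusted p 9.56e-05), where 10.1% of all genes were called higher and 8.02% lower.

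**Figure D5:**
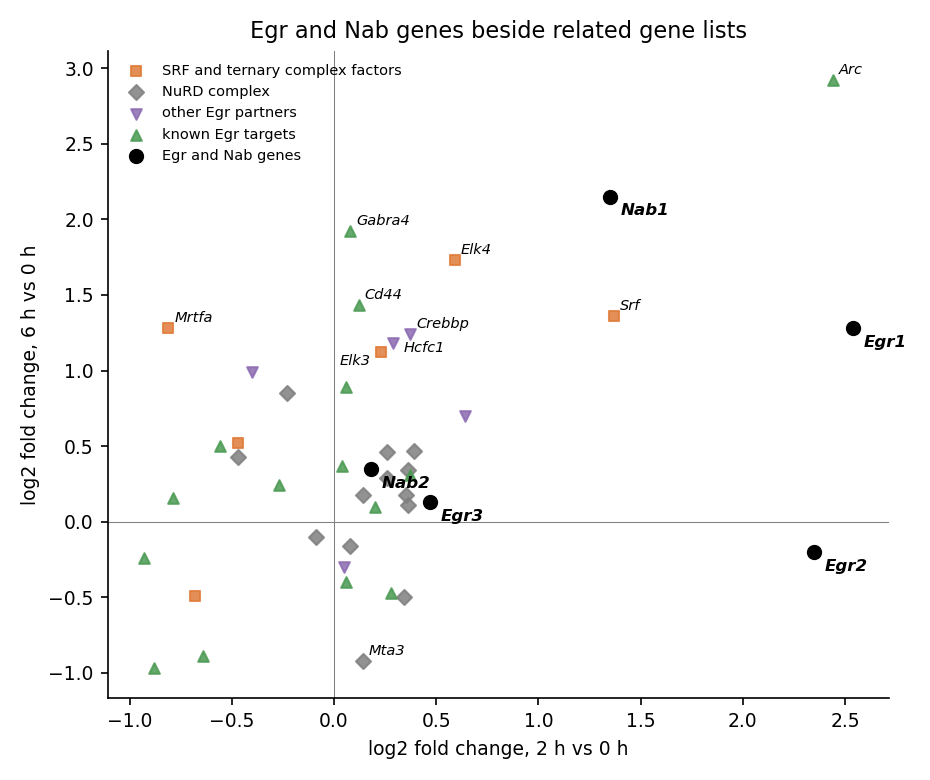
Log2 fold change at 6 h against 0 h (y axis) and at 2 h against 0 h (x axis) for the Egr and Nab genes (black) and the genes of 4 related lists; each symbol is 1 gene, and both axes share the 0 h libraries. Egr4 is left out for its low counts. Egr1 (2.54 and 1.28), Srf (1.37 and 1.36) and Nab1 (1.35 and 2.15) are high on both axes together with Arc (2.44 and 2.92), while Egr2 (2.35 and -0.20) is high at 2 h only.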

How the data were processed

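Processed RNA-seq tables of 6 libraries were used, and the RNA bisulfite libraries were not analysed here. According to the labels and the published methods, adapters were trimmed with Trim Galore and reads were assigned to mm10, and the processing notes of the submitters name RSEM 1.3.0 and Bowtie2 2.2.9. The annotation release and the strand setting are not given in the sources used here. The authors deposited expected counts (not normalized, reads shared among genes by maximum likelihood), TPM (scaled to the same total per library after correction for transcript length) and the effective length per gene in bases. The deposited FPKM column was not used.

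Expected counts were rounded, and the 22515 genes with any count were tested in a single fit of all 6 libraries with DESeq2 1.42.0 in R 4.3.3 (group as the only term, median-of-ratios size factors, Wald test, Benjamini-Hochberg adjustment). Calls needed an absolute log2 fold change above 1 and an adjusted p not above 0.05. The quasi-likelihood test of edgeR 4.0.16, limma 3.58.1 on log2(TPM + 1) and log2(TPM + 0.1), other scalings, a filter on low counts, a test against a fold of 2, a GC correction, a replicate block and leaving out each library were alternatives. Log2 effective length was tested with limma (moderated test with a trend) where the expected count averaged 100 or more, with calls at an absolute log2 ratio from 0.2 upward and the same adjusted p. Tests were checked on simulated data. Of the listed identifiers, 42462 matched a symbol in GENCODE M21, which may be another release than that of the authors. Promoter windows came from RefSeq (GRCm38.p6).

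The 6 genes, the related lists and the tests were chosen with earlier results of these data known. Genes named are the 6 genes, the 3 nearest genes of each, and at most 4 genes per list, those called in any comparison with the largest absolute log2 fold change. Total expected counts of 25959298 to 28573067 set the depth, and intervals cover counting error only, since the reads carry no molecular identifiers.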

Additional observations from a re-analysis of the deposited data

How the results depend on the processing

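Egr1 and Egr2 at 2 h against 0 h, Egr2 at 6 h against 2 h and Nab1 at 6 h against 0 h kept their calls in all 16 alternatives, with log2 fold changes of 2.07 to 2.58, 1.44 to 2.5, -2.79 to -1.62 and 1.9 to 2.2. Tested against a fold of 2, the 6 genes had 2 calls higher at 2 h against 0 h (Egr1 and Egr2), 1 higher at 6 h against 0 h (Nab1) and 1 lower at 6 h against 2 h (Egr2), and over all genes the calls fell to 178 higher and 225 lower, 446 and 414, and 342 and 198. With limma on log2(TPM + 1), 1 of the 6 was higher at 6 h against 0 h, since Egr1 came to 0.91, and calls over all genes were 257 higher at 2 h against 0 h, 777 higher at 6 h against 0 h and 750 lower at 6 h against 2 h. Library totals gave 1032 genes higher at 6 h against 0 h. Leaving out 1 library gave 2 to 3 of the 6 genes higher at 2 h against 0 h and 0 to 1 higher at 6 h against 2 h, the ends at 2 and 1 coming without 2 h replicate 1.

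Uncalled values near 0 changed sign. Egr3 at 6 h against 0 h was -0.11 with library totals, -0.03 and -0.04 with limma on log2(TPM + 1) and log2(TPM + 0.1), and -0.06 to 0.30 without 1 library. Nab2 at 2 h against 0 h was -0.06 and -0.07 in the limma fits, and Egr2 at 6 h against 0 h was -0.44 to 0.01 without 1 library. Log2 length ratios without 1 library were -0.002 to 0.005 for Egr1 and -0.011 to 0.136 for Nab2 at 2 h, and -0.007 to 0.139 for Nab2 at 6 h, the negative Nab2 values coming without 0 h replicate 1. In normalized counts, which are not per length, Nab1 over Nab2 was 3.44, 7.81 and 12 in the order of the time points, and the Egr1 share was 61.4%, 74.3% and 79.8%. The cause of these shifts was not tested.

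Replicate numbers are shared by the groups, but no label says that a number marks a shared litter or day, and deviations of same-numbered libraries correlated at 0.281, -0.00226 and 0.152 in the 3 comparisons. With the replicate block, 3 of the 6 genes were called higher at 2 h against 0 h (Egr1, Egr2 and Nab1), 2 higher at 6 h against 0 h and 3 lower at 6 h against 2 h. Egr4 was the gene whose call at 2 h was lost, with adjusted p 0.0669 under the block, 0.0725 with the block and a GC correction, 0.0514 with library totals, and 0.068 and 0.0841 without 6 h replicate 1 or 2. It had no adjusted p in that comparison when a 0 h or 2 h library was left out or a mean count of 10 was required. Its low counts limit what can be said of it.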

Other observations

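Factors that bind GC-rich sites related to the Egr site were measured as a list of 4 genes (Wt1, Sp1, Sp3 and Sp4). DESeq2 called 0 of them at 2 h against 0 h (1 with an unadjusted p under 0.05, edgeR 0) and 0 at 6 h against 0 h (3 with an unadjusted p under 0.05, edgeR 1 lower). Over all genes 3.62% were called higher and 5.94% lower at 2 h, and 9.10% higher and 10.2% lower at 6 h, so 0 in 4 is near the background. From 2 h to 6 h 1 was called higher, the general activator Sp1, where 10.1% of all genes were called higher and 8.02% lower. It stood at 1009 and 969.1 normalized counts at 0 h, 757.9 and 680.3 after 2 h, and 1888 and 1768 after 6 h (log2 fold change from 2 h 1.35, SE 0.13, adjusted p 1.6e-23). Of 6 myelin genes that Egr2 drives in Schwann cells, 5 had an adjusted p, and DESeq2 called 0 in each of the 3 comparisons. In each of them 2 had an unadjusted p under 0.05, and edgeR called 1 lower at 6 h against 0 h and 0 in the others, as did DESeq2 with library totals. A count of 0 in 5 is likewise near the background.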
